A study of Mus musculus with 12 samples.

Results

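The genes that build and govern the proton pump of the lysosome were followed in GFP(+) cells sorted from mouse livers at day 0, 3 days and 14 days after bile duct ligation (BDL), an operation that blocks the flow of bile. The members were taken by name and not by their values, though earlier results of these data were known when the list was chosen. They are the protein-coding genes whose symbols start with Atp6v or Atp6ap, the transcription factors *Tfeb*, *Tfe3* and *Mitf*, the folliculin genes *Flcn*, *Fnip1* and *Fnip2*, the Rag GTPase genes *Rraga*, *Rragb*, *Rragc* and *Rragd*, the Ragulator genes *Lamtor1* to *Lamtor5*, and *Mtor* and *Rptor*. The rule found 36 of the 16971 genes of the deposited table, and 35 of them passed the minimum of 10 normalized counts summed over the libraries, as did 12891 genes in all. The gene that did not pass was *Rragb*. *Atp6v1b1*, *Atp6v1c2*, *Atp6v1e2*, *Atp6v1g3*, *Atp6v0a4* and *Atp6ap1l* had no value among these 36 and were not analysed here.

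All mice were Prom1CreERT2-nLacZ/+;Rosa26Lsl-GFP/+ on the C57BL/6 background and received tamoxifen at 6 weeks of age, 7 days before surgery. In this model the *Prom1* locus drives the recombinase, so that GFP marks the cells that expressed *Prom1* at the time of tamoxifen together with all of their progeny. The day 0 group is labelled as sham, and both BDL groups underwent ligation. The means rested on 3 day 0, 3 BDL day 3 and 4 BDL day 14 libraries, although 6 libraries carry the BDL day 14 label. Males and females were not in equal proportion in the groups, which bears on the X-linked members *Atp6ap1*, *Atp6ap2*, *Rragb* and *Tfe3*, and the part of sex in their values was not tested.

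The vacuolar H+-ATPase is a rotary pump. Its V1 sector in the cytosol hydrolyses ATP, and its membrane-embedded V0 sector carries protons into the lysosome, whose hydrolases work in acid. The same pump takes part in amino acid sensing: together with the Ragulator scaffold it anchors the Rag GTPases, which bring mTORC1 to the lysosomal surface when amino acids are plentiful. Folliculin and its FNIP partners act on the Rag C and Rag D side of the switch, and mTORC1 phosphorylates TFEB and TFE3 and holds them in the cytosol. When mTORC1 is off, these factors enter the nucleus and bind short E-box-like sequences near the starts of lysosomal genes, those of the pump included. Macrophages are rich in this machinery.

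The sequence that TFEB and TFE3 favour was therefore looked for in the promoters of the members, taken as the 250 bases before and 50 bases after each RefSeq start (GRCm38.p6). A promoter was on hand for 29 of the 36 members, and none for *Atp6v0a2*, *Atp6v0d2*, *Atp6v1b2*, *Atp6v1c1*, *Atp6v1g1*, *Atp6v1h* or *Lamtor3*. The 7-base sequence TCACGTG, or its other strand CACGTGA, occurred in 9 of the 29 (31.0%), compared with 7.02% of the 9570 kept protein-coding genes that had a promoter. The 29 and the 9 include *Rragb*, which did not pass the minimum of counts, while the 9570 genes all did. The 8-base palindrome TCACGTGA, which contains both, occurred in 3 of 29 (10.3%) against 2.22%. The E-box core CACGTG alone gave the same 9 members, against 11.7%, and the longer CLEAR element, a palindrome of 10 bases around that core, occurred in 0 members, against 0.784%. A match describes these letters and is not a site of binding. The 8 kept members with a match are shown. They include 4 genes of the pump, *Rragc* and *Lamtor1*, which were called higher at BDL day 3, and *Fnip1* and *Lamtor4*, which were not. Of these pump genes, *Atp6v0b* and *Atp6v0e* were not called at BDL day 14. Each stretch reads in the direction of its gene, with the match in capitals:
Atp6v1a, chr16:44139364-44139411, minus strand: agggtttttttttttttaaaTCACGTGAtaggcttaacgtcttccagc
Atp6v0b, chr4:117887335-117887386, minus strand: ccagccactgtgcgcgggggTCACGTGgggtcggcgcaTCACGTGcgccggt
Atp6v0d1, chr8:105566050-105566079, minus strand: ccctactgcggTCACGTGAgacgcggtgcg
Atp6v0e, chr17:26676387-26676416, plus strand: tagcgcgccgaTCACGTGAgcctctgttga
Fnip1, chr11:54438084-54438130, plus strand: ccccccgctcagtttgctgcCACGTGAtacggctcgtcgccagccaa
Rragc, chr4:123917301-123917347, plus strand: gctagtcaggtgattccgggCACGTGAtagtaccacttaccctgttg
Lamtor1, chr7:101905748-101905794, plus strand: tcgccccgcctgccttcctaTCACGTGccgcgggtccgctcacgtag
Lamtor4, chr5:138255342-138255403, plus strand: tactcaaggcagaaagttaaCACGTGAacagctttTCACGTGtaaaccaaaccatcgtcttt

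Counted from the RefSeq start, with -1 as the last base before it, the matches began at -132 in *Atp6v1a*, at -112 in *Rragc*, at -75 in *Fnip1*, at -69 in *Lamtor1* and at -4 in *Atp6v0d1*. *Atp6v0b* held 2 matches, at -37 and -19, and *Lamtor4* held 2, at -120 and -105. The match of *Atp6v0e* began at 3, inside an annotated 5′ untranslated region. The stretch of *Atp6v1a* lay in an intron of a longer annotated transcript of the same gene, and that of *Lamtor1* in the span of *Tomt* on the opposite strand. *Rragb*, the member that did not pass the minimum, held 3 matches, which began at -127, -36 and -3.

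The table gives 1 mean of normalized counts per group and gene, and no value for a single library, so depth per library is unknown, no counting interval could be had, and no test was run. Differences are given as ratios of group means, and a member is called higher or lower past a fold of 1.5, the study's own threshold for size. The error came from a second source. The table also lists the geometric mean of each gene over the 10 libraries, and the amount by which it falls under the group means measures the spread within the groups. From it a pooled SD between libraries was recovered on the log2 scale, with 7 degrees of freedom and under the assumption that the groups vary alike. The SE of each log2 ratio is this SD scaled by the group sizes. The median recovered SD was 0.36 over the 35 members and 0.58 over all kept genes. The same sums limit each library. Together with the count of the highest library, they decide for some genes that no library of one group can reach any library of the other, whatever the single values were. Such groups are called apart, and groups not called apart may or may not overlap.

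At BDL day 3, most genes of the pump were higher than at day 0. Of the 35 members, 19 were more than 1.5-fold higher (19.2% of all kept genes were) and 0 were more than 1.5-fold lower (29.2%). In 9 members, *Atp6v1a*, *Atp6v1b2*, *Atp6v1c1*, *Atp6v1g1*, *Atp6v0d1*, *Atp6ap1*, *Rragc*, *Lamtor1* and *Lamtor3*, the BDL day 3 libraries were apart from and above those of day 0 (3.07% of kept genes), and 0 were apart below (3.96%). The median log2 ratio was 0.66 over the members and -0.02 over all kept genes, and 32 members had a ratio above 0. Lowly counted genes make up much of the table, so the background was also taken over genes with a mean of at least 10. There, 19 of 32 members were called higher against 22.9% of genes, 9 were apart above against 4.91% and 0 apart below against 2.47%, and the median of all such genes was 0.18.

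At BDL day 14, 15 of the 35 members were more than 1.5-fold higher than at day 0 (21.2% of kept genes) and 0 were lower (28.8%). The libraries were apart and above in 6 of them, *Atp6v1a*, *Atp6v1c1*, *Fnip2*, *Rragc*, *Lamtor1* and *Lamtor3* (2.83%), and apart and below in 0 (4.51%). The median log2 ratio was 0.46, with 27 members above 0, beside -0.04 over all kept genes. Among genes with a mean of at least 10, 15 of 32 members were called higher against 23.4%, 6 were apart above against 4.44% and 0 apart below against 3.84%, and the median of all such genes was 0.13. Both comparisons share the day 0 libraries, so their ratios are not independent of each other. Between BDL day 3 and BDL day 14, 5 members were higher at day 14 (21.2%) and 5 were lower (19.7%), and 0 were apart in either direction (1.38% above and 2.41% below, and 1.52% and 3.40% with a mean of at least 10).

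**Figure D1:**
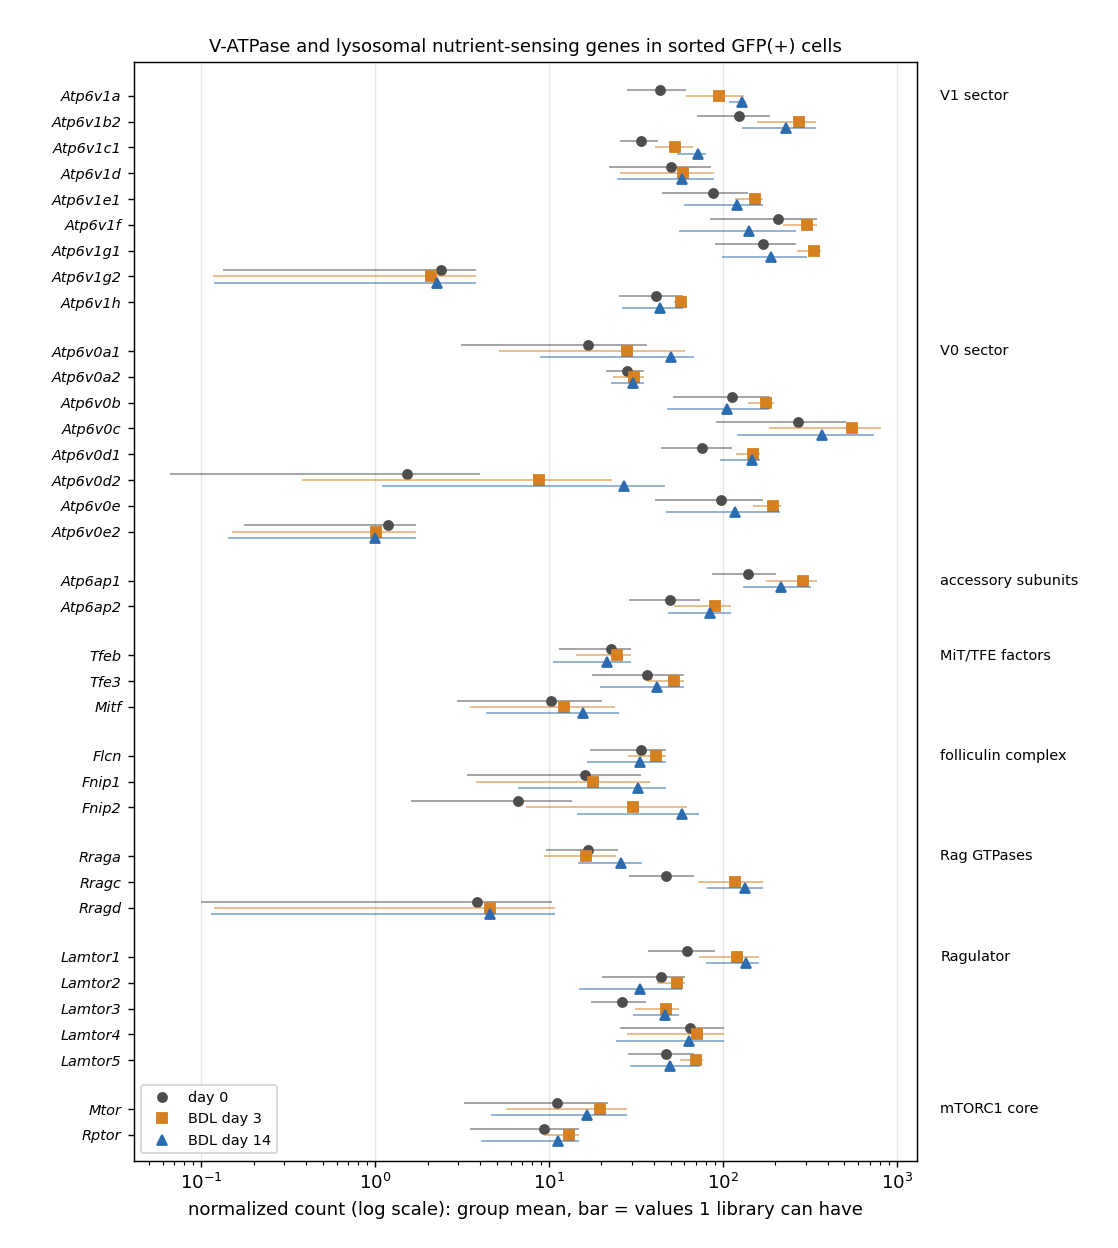
Normalized counts on a log axis of the 35 kept members, grouped by role. Symbols are the authors' group means of day 0 (3 libraries), BDL day 3 (3) and BDL day 14 (4), and each bar spans the values that 1 library of the group could have, given the deposited means, geometric mean and highest library. Most of the pump sits higher at BDL day 3, *Rragc*, *Lamtor1* and *Lamtor3* sit higher in both BDL groups, and *Tfeb*, *Flcn*, *Lamtor4* and *Atp6v0a2* hold nearly the same means in all 3 groups.

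In the V1 sector, *Atp6v1a* encodes the catalytic A subunit. Its mean stood at 43.7 normalized counts in the day 0 group, 94.5 in the BDL day 3 group and 129 in the BDL day 14 group. A day 0 library could not exceed 61.3, and a BDL day 14 library could not fall under 108, so these groups lay far apart. Against day 0 the log2 ratios were 1.11 ± 0.18 (SE) for BDL day 3 and 1.56 ± 0.17 for BDL day 14. *Atp6v1b2*, the B subunit of the same catalytic ring in most tissues, measured 124, 274 and 230 in the same order. Its day 0 and BDL day 3 libraries were apart, with a log2 ratio of 1.14 ± 0.22, and at BDL day 14 the ratio was 0.89 ± 0.20 without the groups shown to be apart.

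*Atp6v1c1* encodes the C subunit, which helps to join V1 to V0 and is released when the pump is taken apart. It measured 33.6, 53.2 and 72.1 and had the smallest recovered spread but one among the kept members (SD 0.13). Day 0 libraries lay between 25.6 and 42.3 at the widest and BDL day 14 libraries between 54.2 and 80.3, which leaves no overlap. The log2 ratios to day 0 were 0.66 ± 0.10 and 1.10 ± 0.10. *Atp6v1g1*, a G subunit of the peripheral stalk, followed another course, with 169, 332 and 189. BDL day 3 was apart from day 0 at a log2 ratio of 0.97 ± 0.25, but the BDL day 14 mean was back within 0.16 ± 0.23 of day 0. *Atp6v1e1*, the E subunit of the same stalk, took this course in a milder form, with 87.9, 153 and 121.

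None of the other V1 genes passed 1.5-fold against day 0 in either BDL group. *Atp6v1f*, the F subunit of the central rotor, measured 208, 306 and 142, and neither ratio to day 0 passed 1.5-fold (0.56 ± 0.36 and -0.55 ± 0.34). *Atp6v1d*, its partner in the rotor, measured 50.5, 58.6 and 58.0, with log2 ratios of 0.21 ± 0.35 and 0.20 ± 0.33. *Atp6v1h*, the regulatory H subunit, measured 41.2, 57.0 and 43.5. *Atp6v1g2*, a G subunit known from neurons, was at 2.40, 2.10 and 2.26, too low to compare. In all, 5 of the 9 V1 genes were called higher at BDL day 3 (19.2% of all kept genes) and 3 of 9 at BDL day 14 (21.2%). With so few genes, the BDL day 14 count is not clearly above that share.

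In the V0 sector, the proteolipid ring gene *Atp6v0c* measured 271, 549 and 372 and had the highest mean per kb of exon of any member in each group. The BDL day 3 group had a log2 ratio of 1.02 ± 0.44 to day 0, and the groups were not shown to be apart. *Atp6v0b*, the c″ proteolipid, measured 112, 177 and 106, and *Atp6v0e*, a small subunit beside the ring, 97.7, 193 and 117. Both were thus higher at BDL day 3 (0.66 ± 0.29 and 0.98 ± 0.34) and close to day 0 at BDL day 14 (-0.08 ± 0.27 and 0.26 ± 0.32). When the highest library was left out, *Atp6v0b* stood at 0.58, just under the fold of 1.5.

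The d subunit couples the rotor of V1 to the V0 ring and comes in a widespread form, *Atp6v0d1*, and a form known from osteoclasts and other macrophage-lineage cells, *Atp6v0d2*. *Atp6v0d1* measured 76.1, 149 and 147. Its BDL day 3 libraries were apart from those of day 0, with a log2 ratio of 0.97 ± 0.19, and the BDL day 14 ratio was 0.95 ± 0.18. *Atp6v0d2* measured 1.53, 8.78 and 26.8, which are log2 ratios of 2.52 ± 0.96 and 4.13 ± 0.90. The day 0 mean is so low that the size of these ratios is uncertain: they were 1.95 and 3.46 with a pseudocount of 1, and 3.31 and 4.80 with quantile normalization. No day 0 library could exceed 4.01, but a BDL day 14 library as low as 1.10 was possible and the recovered SD was 1.18, so the groups were not shown to be apart. Per kb of exon, *Atp6v0d2* made up 3.64% of the d subunit transcripts at BDL day 3 and 10.5% in the BDL day 14 group.

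The a subunit forms the path of the protons and directs the pump to its membrane. *Atp6v0a1* measured 16.8, 27.9 and 50.1, with a wide recovered SD of 0.76, and its log2 ratios were 0.73 ± 0.62 and 1.58 ± 0.58. *Atp6v0a2*, the Golgi form, was flat at 28.0, 30.7 and 30.4 with the smallest recovered SD of the kept members (0.10), and its log2 ratios were 0.13 ± 0.08 and 0.12 ± 0.07. *Tcirg1*, the a3 form of lysosomes and osteoclasts, does not carry the name of the family and so is no member. It measured 98.9, 148 and 140 and made up 76.1%, 78.0% and 70.1% of the a subunit transcripts per kb, while *Atp6v0a1* went from 10.6% to 12.0% and 20.5%. *Atp6v0e2* was near 1 normalized count in every group (1.18, 1.01 and 0.998). Of the 8 V0 genes, 6 were called higher at BDL day 3 (19.2% of all kept genes) and 3 at BDL day 14 (21.2%). The latter count is again too small to set clearly above that share.

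The accessory subunits help to assemble V0 and are both X-linked. *Atp6ap1* measured 140, 288 and 216. BDL day 3 was apart from day 0 (log2 ratio 1.04 ± 0.18), and the ratio at BDL day 14 was 0.63 ± 0.17. *Atp6ap2*, also known as the prorenin receptor, measured 49.5, 90.1 and 84.5, with log2 ratios of 0.86 ± 0.24 and 0.77 ± 0.23.

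**Figure D2:**
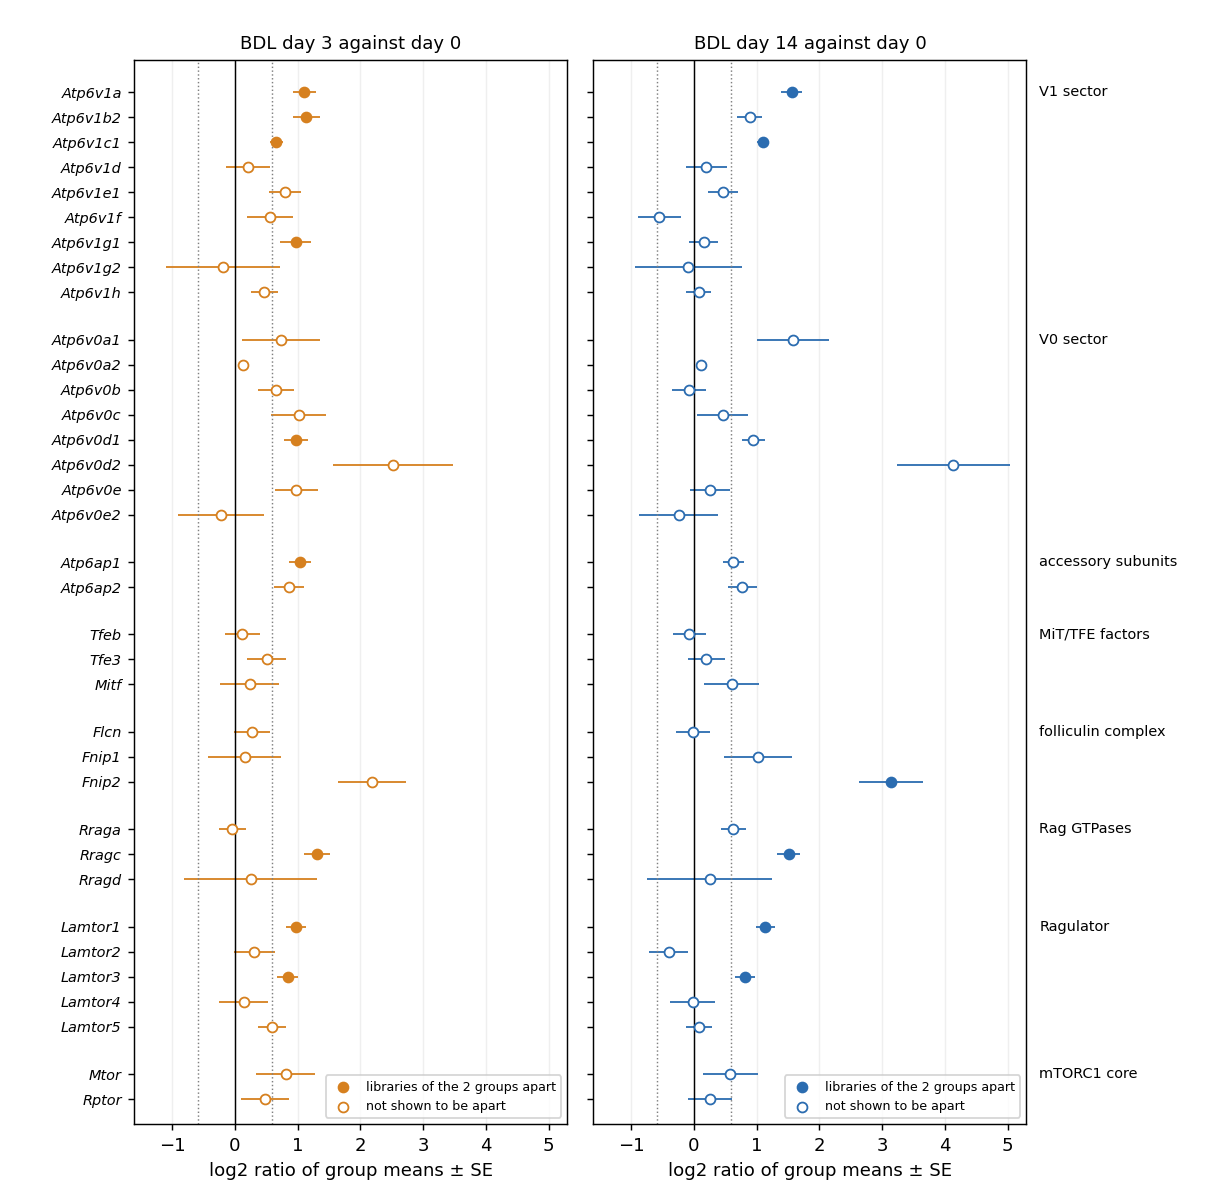
Log2 ratio of the group means for the 35 kept members, BDL day 3 against day 0 on the left and BDL day 14 against day 0 on the right. Bars are ± 1 SE from the recovered pooled SD, filled symbols mark groups whose libraries were apart, and dotted lines mark a fold of 1.5 in each direction. Of the members, 9 are filled at day 3 and 6 at day 14, all to the right of 0, and *Atp6v0d2* and *Fnip2* lie farthest to the right in both panels.

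None of the transcription factors that answer to the lysosome passed 1.5-fold at BDL day 3. *Tfeb* measured 22.6, 24.5 and 21.6, with log2 ratios of 0.12 ± 0.28 and -0.07 ± 0.26. *Tfe3* measured 36.5, 52.0 and 42.0, a log2 ratio of 0.51 ± 0.31 at BDL day 3. *Mitf*, best known for melanocytes and osteoclasts, measured 10.3, 12.2 and 15.6. It passed 1.5-fold at BDL day 14 by a narrow margin (log2 ratio 0.60 ± 0.44), and without its highest library it stood at 0.27. Among the other genes of this family, *Tfec*, which is largely limited to macrophages and is no member, was the most abundant per kb in every group. It measured 78.6, 62.1 and 35.7, a log2 ratio of -1.14 ± 0.34 at BDL day 14. Its share of the family per kb was 71.4%, 60.4% and 50.1%, while that of *Tfe3* was 16.4%, 25.0% and 29.1%.

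Folliculin itself, the GTPase-activating protein for Rag C and Rag D, did not move past the threshold. *Flcn* measured 34.0, 41.0 and 33.5. Its partner *Fnip2* measured 6.62, 30.3 and 58.5, with log2 ratios to day 0 of 2.19 ± 0.54 and 3.14 ± 0.51. No day 0 library could exceed 13.6 and no BDL day 14 library could fall under 14.4, so these groups were apart. The BDL day 3 libraries could reach down to 7.38 and were not shown to be apart from day 0. The other partner, *Fnip1*, measured 16.0, 17.9 and 32.5, with log2 ratios of 0.16 ± 0.58 and 1.02 ± 0.54. Per kb, *Fnip2* stood at 0.355 of *Fnip1* at day 0, and at 1.45 and 1.54 times *Fnip1* in the BDL groups.

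**Figure D3:**
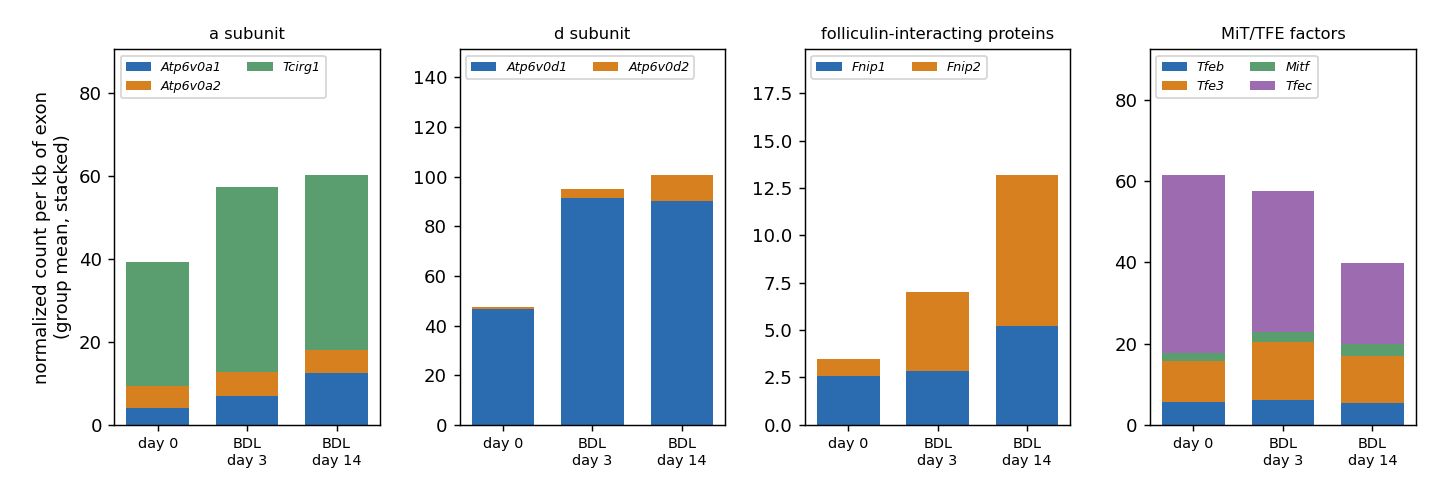
Stacked group means per kb of annotated exon for 4 families of related genes at day 0, BDL day 3 and BDL day 14, each panel with its own linear axis from 0. *Fnip2* goes from 26.2% of the folliculin-interacting transcripts at day 0 to 60.7% at BDL day 14, *Atp6v0d2* makes up 10.5% of the d subunit at BDL day 14, and *Tfec* goes from 71.4% to 50.1% of its family.

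The Rag GTPases work as pairs of one A or B with one C or D. *Rragc* measured 47.1, 117 and 134, and its day 0 libraries were apart from those of both BDL groups. None at day 0 could exceed 68.0, and none could fall under 71.9 at BDL day 3 or under 80.6 at BDL day 14. The log2 ratios were 1.31 ± 0.20 and 1.51 ± 0.18. *Rraga*, which binds on the other side of the pair, measured 16.7, 16.2 and 25.9, with log2 ratios of -0.04 ± 0.21 and 0.63 ± 0.20. Without its highest library it fell under the threshold at BDL day 14, at 0.47 against day 0 and at 0.51 against BDL day 3. *Rragd* measured 3.85, 4.57 and 4.57 with a recovered SD of 1.30. Its highest library could belong to either BDL group. If it were a BDL day 3 library, the log2 ratio of 0.25 there would be -1.40 without it. *Rragc* made up 96.1%, 98.1% and 98.3% of the C and D transcripts per kb. *Rragb* had a mean of 1.21 at day 0 and a highest library of 2.43. Its BDL day 3 mean of 0.0729 was the lowest value listed for any gene in that group, and its BDL day 14 mean was 0.0920, so no fold is given.

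Ragulator is built from the products of 5 genes, and 2 of them stood out. *Lamtor1*, which anchors the complex to the membrane, measured 61.9, 121 and 136, and *Lamtor3* measured 26.3, 47.0 and 46.4. Both were apart from day 0 in both BDL groups. The log2 ratios were 0.97 ± 0.16 and 1.14 ± 0.15 for *Lamtor1*, and 0.84 ± 0.17 and 0.82 ± 0.16 for *Lamtor3*. *Lamtor5* measured 46.8, 70.4 and 49.4, a ratio at the edge of the threshold at BDL day 3 (0.59 ± 0.22, and 0.52 without its highest library). *Lamtor2* measured 43.8, 54.4 and 33.2 and *Lamtor4* 64.3, 70.7 and 63.6, and neither passed the threshold against day 0. The complex is thought to hold its subunits in equal number, and the log2 ratios of its genes to day 0 ran from 0.14 to 0.97 at BDL day 3 and from -0.40 to 1.14 at BDL day 14.

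*Mtor*, the kinase of the complex, measured 11.1, 19.5 and 16.6. The BDL day 3 group had a log2 ratio of 0.81 ± 0.47 to day 0. The highest library could belong to either BDL group. If it were a BDL day 3 library, the ratio without it would be 0.46, under the threshold. *Rptor*, which encodes the adaptor that docks on the Rag GTPases, measured 9.35, 13.0 and 11.2, with log2 ratios of 0.48 ± 0.38 and 0.26 ± 0.35.

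Members past 1.5-fold between the BDL groups were not clearly more frequent than such genes in the whole table. Of the 35 members, 14.3% were called in each direction. Among all kept genes, 21.2% were higher at the later time and 19.7% lower. With a mean of at least 10, the members' share was 15.6% each way, beside 14.1% higher and 17.4% lower. The libraries of the BDL groups were apart in 0 members. *Atp6v0b*, *Atp6v0e*, *Atp6v1f*, *Atp6v1g1* and *Lamtor2* were more than 1.5-fold lower at day 14, with log2 ratios from -0.71 to -1.11. *Atp6v0a1*, *Atp6v0d2*, *Fnip1*, *Fnip2* and *Rraga* were higher, with log2 ratios from 0.68 to 1.61. The SE of these 10 ratios lay between 0.20 and 0.90. Short and long transcripts differed between these groups in the whole table: among kept protein-coding genes the median log2 ratio was -0.30 with an exon length of up to 1 kb, -0.19 with 1 to 2 kb, -0.04 with 2 to 4 kb and 0.15 with over 4 kb. Over the members, which come from the same libraries, Pearson's r between log2 exon length and this ratio was 0.43 (Spearman's rho 0.48, n = 35 genes). Over all 12053 kept protein-coding genes it was 0.16 (rho 0.20). After the median of the length class was subtracted, *Atp6v1f* stood at -0.92, *Atp6v1g1* at -0.62, *Atp6v0e* at -0.68, *Atp6v0b* at -0.44 and *Lamtor2* at -0.41. On the same scale *Atp6v0d2* stood at 1.65, *Rraga* at 0.87, *Fnip2* at 0.80, *Fnip1* at 0.72 and *Atp6v0a1* at 0.70. The part of transcript length in these differences was not tested.

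**Figure D4:**
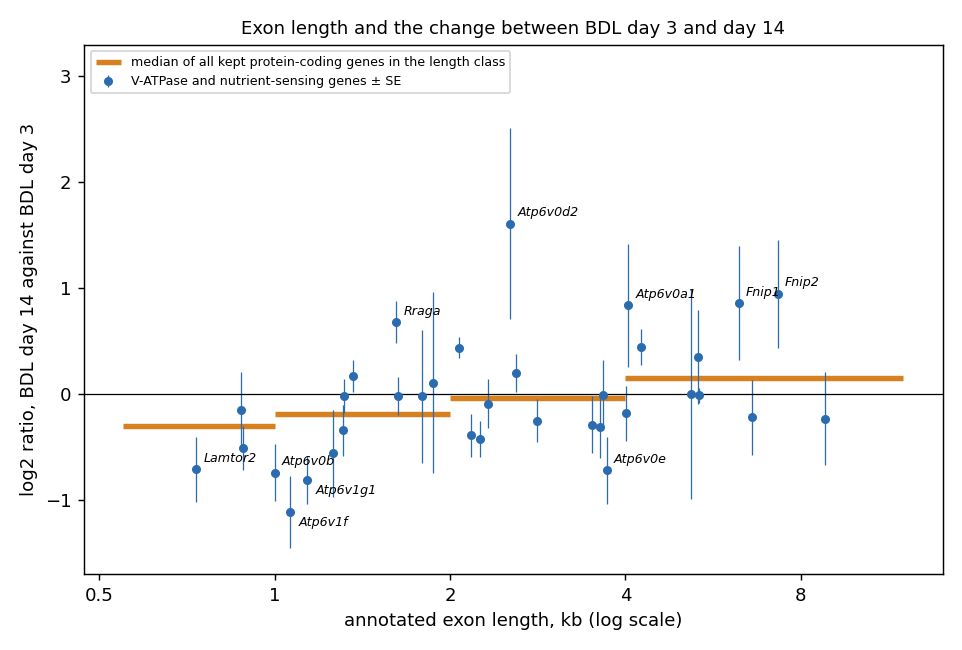
Log2 ratio of BDL day 14 against BDL day 3 by annotated exon length on a log axis. Points are the 35 kept members with ± 1 SE, and orange lines give the median of all kept protein-coding genes of each length class, which goes from -0.30 in the shortest to 0.15 in the longest. The 10 named members are those past 1.5-fold.

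The members with TCACGTG or CACGTGA in the promoter were set beside the others as a description. At BDL day 3, 6 of the 8 kept members with a match were called higher, with a median log2 ratio of 0.97. Of the 20 kept members whose promoter had no match, 8 were called higher, with a median of 0.49, and of the 7 without a promoter 5 were. At BDL day 14 the counts were 5 of 8, 6 of 20 and 4 of 7. Of all kept genes, 19.2% were called higher at BDL day 3 and 21.2% at BDL day 14. Kept genes with the same match were not counted on their own. *Atp6v0b*, which has a match, was under 1.5-fold at BDL day 3 without its highest library (0.58). The part of the match in these values was not tested. Among the members with a match, *Lamtor4* had the smallest ratio at BDL day 3 (0.14 ± 0.39). *Fnip2*, which had one of the largest ratios, had no match in its window.

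Other genes of the pathway were counted from lists by role. Of 16 lysosomal genes known as TFEB targets, 15 were called higher at BDL day 3 (19.2% of all kept genes) and 13 at BDL day 14 (21.2%). Their libraries were apart and above in 11 (3.07%) and 9 (2.83%). Among genes with a mean of at least 10, the shares were 22.9% and 23.4% called higher, and 4.91% and 4.44% apart above. *Ctsd*, the protease cathepsin D, measured 1170, 4180 and 4650, with log2 ratios of 1.84 ± 0.22 and 1.99 ± 0.21. *Gla*, alpha-galactosidase A, measured 8.90, 47.8 and 67.9, and *Lamp1*, a major protein of the lysosomal membrane, measured 640, 1410 and 1590. Both were apart from day 0 in both BDL groups. *Gpnmb*, a lysosomal glycoprotein of lipid-laden macrophages, had the largest ratio of this list, at 13.2, 164 and 1130.

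Among 10 genes of V-ATPase assembly and regulation, *Tcirg1* included, 4 were called higher and 0 lower at BDL day 3, and 5 higher and 1 lower at BDL day 14. Over all kept genes, the higher and lower shares were 19.2% and 29.2% at BDL day 3, and 21.2% and 28.8% in the later comparison. The assembly factor gene *Vma21* measured 10.6, 24.2 and 16.5 and was apart from day 0 at BDL day 3. *Ncoa7*, whose product binds the pump, measured 16.8, 31.9 and 10.1 and was apart and lower at BDL day 14 than at BDL day 3. *Dmxl2*, a part of the complex that brings V1 back to V0, measured 5.11, 3.96 and 11.0.

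The amino acid sensors upstream of the Rag GTPases were more often called lower than higher, as were all kept genes. Of 17 genes of the GATOR and KICSTOR complexes, the Sestrins and other sensors, 2 were called higher and 6 lower at BDL day 3, where 19.2% and 29.2% of all kept genes were, and 0 higher and 5 lower at BDL day 14, where 21.2% and 28.8% were. *Sesn3*, a Sestrin, measured 11.9, 2.81 and 2.94, with log2 ratios of -2.08 ± 0.69 and -2.02 ± 0.65. *Castor1*, the arginine sensor, measured 3.49, 0.654 and 2.18 and was apart and lower at BDL day 3. The median mean of this list was 8.45 normalized counts at day 0, so its ratios rest on fewer counts than those of the pump. Of 10 mTORC1 partners, TSC genes and substrates, 3 were higher and 1 lower at BDL day 3, against the same 19.2% and 29.2%. At BDL day 14, 2 were higher and 1 lower, against 21.2% and 28.8%. Of 6 genes that act on TFEB and TFE3, 2 were higher and 0 lower at BDL day 3, and 2 higher and 1 lower at BDL day 14, numbers too small to set against the table. The calcineurin subunit gene *Ppp3r1* measured 32.7, 51.2 and 53.4, and the lower gene was *Tfec*.

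The sorted cells carried strong markers of macrophages, which were higher at BDL day 3 like the members and were mixed at BDL day 14. In bulk samples, fewer cells of a type and less RNA per cell cannot be told apart. All 8 general macrophage markers had a mean of at least 92.2 in every group, and their means summed to 7407, 13517 and 15890 in the order of the groups. At BDL day 3, 6 of the 8 were called higher (19.2% of all kept genes) and 0 lower (29.2%), with a median log2 ratio of 0.83. At BDL day 14, 1 was higher and 0 lower, with a median of 0.21, and that 1 marker, *Lyz2*, supplied 11200 of the summed mean. The 5 Kupffer cell markers summed to 9212, 20869 and 1278, with 4 higher at BDL day 3 (19.2% of all kept genes) and all 5 lower at BDL day 14 (28.8%). The 5 markers of recruited macrophages summed to 106, 411 and 1924, but not all of them took this course. At BDL day 3, 2 were called higher (19.2% of all kept genes) and 1 lower (29.2%), with a median log2 ratio of -0.33. *Trem2* supplied 291 of the sum. At BDL day 14, 4 were higher (21.2%), and *Ly6c2* was lower (28.8%), with a log2 ratio of -1.71. Of the 10 cholangiocyte markers, 7 passed the minimum, and they fell short of the macrophage markers by far: the 10 summed to 84.3, 43.3 and 49.6, and *Prom1* itself measured 6.66, 0.956 and 1.76. The cholangiocyte marker *Sctr* stood at the lowest value listed for BDL day 3.

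Most markers of other cell types were lower after BDL, with the endothelial ones an exception at BDL day 14. The 8 hepatocyte markers summed to 3374, 939 and 381, and the 10 mesenchymal markers to 1317, 23.8 and 124. The 6 endothelial markers summed to 882, 561 and 863. Of these 6, 5 were called lower at BDL day 3 (29.2% of all kept genes). At BDL day 14, 2 were lower (28.8%) and 1 was higher (21.2%), counts close to those shares. The 4 neutrophil markers summed to 478, 220 and 126, the 4 T and NK cell markers to 64.7, 14.2 and 2.87, and the 4 B cell markers to 180, 49.1 and 21.3. The part of cell makeup in the values of the pump and its regulators was not tested.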

How the data were processed

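GFP(+) cells were sorted by FACS and their mRNA was sequenced from TruSeq libraries. The authors trimmed reads by quality and length, aligned them to mm10 with STAR (2.5.3a in the study's methods, 2.6.1d in the submitters' processing notes), counted them on GENCODE M18 genes and normalized by the upper quartile in Partek Flow. The deposited signal values are the authors' least squares mean of normalized counts per group, and the sum, highest, geometric mean and arithmetic mean over the libraries. The table holds 0 columns of values per library. Its columns of the authors' own comparisons (p-values, FDR, ratios, fold changes and limits) were not used. Weighted by 3, 3 and 4 libraries, the group means gave back the arithmetic mean (99th percentile of the deviation 0.469%, next best set 4.93%).

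From these values were computed log2 ratios without a pseudocount, calls past 1.5-fold after the minimum of 10 summed counts, the recovered SD and the groups apart (checked on simulated data), levels per kb with GENCODE M21 exon lengths, which matched all 36 members by coordinates, and promoter matches (Python 3.11.15, pandas 2.3.3, numpy 2.4.6). All members in the table were named, with full values for the largest ratios of each role. Pathway and marker genes came from lists written by role. The members and lists were chosen with earlier results of these data known. The recovered SD, the groups apart, the length classes and the background at a mean of at least 10 were added after seeing the data. Libraries are labelled as separate samples, 1 mouse each in the study.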

Additional observations from a re-analysis of the deposited data

How the results depend on the processing

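Median-ratio scaling, a pseudocount of 1, no filter, a mean of at least 10 and leaving out the highest library kept the median log2 ratio of the members within the recovered spread, as did quantile normalization: from 0.45 to 0.70 for BDL day 3 and from 0.29 to 0.65 for BDL day 14, both against day 0. Quantile normalization shifted the median of all kept genes by 0.14 in both comparisons with day 0. The counts of members called higher were 14 to 19 for BDL day 3 and 13 to 18 for BDL day 14 under these settings. With a fold of 2 they were 7 and 8, and between BDL day 14 and BDL day 3 that fold left 1 higher and 1 lower. Quantile normalization left 2 lower there, and called 1 lower at BDL day 14 against day 0. Without a filter, *Rragb* added 1 lower in each comparison with day 0 and 1 apart and lower at BDL day 3. With each gene's highest library left out of the higher group wherever its sum could hold it, the lower calls were 4 for BDL day 3 and 1 for BDL day 14, and *Atp6v0a1* turned to -1.13 at BDL day 3. Its highest library, at 68.4, cannot lie in that group, where no library can exceed 60.8. Restricted to groups that the geometric mean allows to hold that library, an alternative chosen after seeing the data, the lower calls were 1 and 1 and the higher calls 16 and 13, and *Atp6v0a1* kept 0.73. The groups apart, also added after seeing the data, numbered 7 to 9 for BDL day 3 and 6 for BDL day 14 with median-ratio scaling, a mean of at least 10 or the geometric mean alone.

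No paired analysis was possible because the table holds no value per library, and replicates could not be left out in turn for the same reason. Depth per library is unknown, so low means (*Rragb*, *Atp6v0e2*, *Atp6v1g2*, and *Atp6v0d2* at day 0) cannot be told from background. The recovered SD assumes equal spread in the groups. No test was run, and batches and outlying libraries could not be looked for.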
